A study of Mus musculus with 12 samples.

Results

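The genes described here encode 10 heat shock proteins and their partners: Hsph1, Hspa4, Hspa8, Dnaja1, Dnajb1, Hsp90aa1, Hsp90ab1, Hspd1, Hspb1 and Cryab. They were taken by symbol with no threshold on measured values, though with earlier results of these data known, and each matched 1 row among the 21959 genes of the deposited table. RNA was measured in C8-D1A, an established mouse line named as astrocytes, in 4 groups of 3 libraries. Control cells were kept at 37 °C under 5% CO2, and the other groups had 15% CO2 in the incubator, 20 mM lactic acid in the medium, or medium whose NaHCO3 was lowered to 0.2 g/L. Cells were collected after 24 h. Numbers in the gas name and reagents of the sample descriptions rise between replicates. This was read as a copying error, and groups were taken from the treatment labels. All groups come from this 1 line, and the labels do not say whether the libraries of a group are separate cultures, so p-values measure the spread between these libraries, which may be technical.

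Heat shock proteins bind unfolded proteins, keep them from clumping and help them refold. HSP70 proteins take up a client with the help of J proteins, which start the hydrolysis of ATP, and let it go with the help of nucleotide exchange factors, among them the HSP110 proteins. HSP90 proteins receive clients such as kinases and steroid receptors from HSP70, and small heat shock proteins hold unfolded proteins without using ATP. In stressed cells heat shock factor 1 binds inverted GAA units in the promoters of many of these genes. In astrocytes Hspb1 and Cryab are known markers of stressed or reactive cells. Of the 10 genes, Hspd1 encodes HSP60, which works in the mitochondrial matrix with Hspe1 rather than in the cytosol.

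Promoter sequence is shown for the genes found to carry such units close to at least 1 start site: Hsph1, Dnaja1, Hspb1 and Hspd1. The sequences are from RefSeq with the build GRCm38.p6, an older one than the GRCm39 of the deposited values, and 11 windows, 1 for each listed start site, were matched for 6 of the 10 genes. There was no entry for Hspa8, Hsp90aa1, Hsp90ab1 and Cryab. In the 250 bases before the start site, GAANNTTC (a pair of units head to head) and TTCNNGAA (tail to tail) were searched on both strands. The runs below end at the base before the start site, except that of Hspd1, and capitals mark the unit letters of each pair.

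Hsph1, chr5:149636337-149636456, minus strand: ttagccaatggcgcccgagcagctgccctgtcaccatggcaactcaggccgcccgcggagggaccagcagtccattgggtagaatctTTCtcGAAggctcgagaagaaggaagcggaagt
Dnaja1, chr4:40722333-40722467, plus strand: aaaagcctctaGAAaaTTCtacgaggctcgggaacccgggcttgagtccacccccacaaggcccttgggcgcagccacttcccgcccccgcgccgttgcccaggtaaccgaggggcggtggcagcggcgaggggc
Hspb1, chr5:135887794-135887918, plus strand: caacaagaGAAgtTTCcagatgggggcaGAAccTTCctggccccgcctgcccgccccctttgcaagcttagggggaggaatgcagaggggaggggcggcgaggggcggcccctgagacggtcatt
Hspd1, chr1:55088057-55088078, minus strand: ccTTCcgGAAggTTCtaGAAcg

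Hsph1 held 1 tail-to-tail pair, in the windows of both its start sites, and Hspb1, with 1 window, held 2 head-to-head pairs. Dnaja1 held 1 head-to-head pair before 1 of its 3 start sites, the one shown, and neither pair before the others. In Hspd1 the pairs overlap, and the stretch shown lies from 146 to 125 bases before 1 of its 2 listed start sites. It lies between that start site and the start of the mitochondrial co-chaperonin gene Hspe1, 216 bases away, which is read in the opposite direction. Either pair was present in at least 1 window of 4 of the 6 genes (Hsph1, Dnaja1, Hspd1 and Hspb1), in 5 of their 11 windows, and in 14.5% of 27025 mouse genes and 12.8% of 32851 windows. Pairs extended by another inverted unit were present in Hspd1 and in 0.514% of all genes. The windows of Hspa4 and Dnajb1 held neither pair, which says only that these letters are not in those windows. Genes with and without pairs fell: Hsph1, Dnaja1, Hspa4 and Dnajb1 all fell with low NaHCO3. Any link between these letters and the changes was not tested. Each match is a description of sequence and not a site of binding.

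Values are TPM, a gene's transcripts per 1000000 of a library, and are scaled by transcript length, so they can be set side by side between genes. No counts were used, so the depth of a library is unknown and no counting interval can be given. Between 14531 and 17319 genes were above 0 in a library. Control replicate 1 stood apart: its Spearman correlation with the other libraries was 0.859 to 0.884, while libraries of the same group otherwise reached at least 0.975. All 10 neuron markers, all 8 oligodendrocyte markers, 6 of 7 microglia markers and all 6 markers of endothelium and blood were highest there. The summed TPM of the neuron markers was 2759 in control 1 and 13.3 to 26.4 in the other 11 libraries, and that of the oligodendrocyte markers was 1058 against 30.8 to 58.7. The microglia sum was 239 against 62.8 to 95.1, the endothelium and blood sum 381 against 16.4 to 20.4, and the astrocyte sum 2059 against 1411 to 2748. Outside control 1, 6 of 10 astrocyte markers (Slc1a2, Slc1a3, Aqp4, Aldh1l1, Gja1 and Aldoc) were under 1 TPM in every library, while Vim, an intermediate filament gene of many cell types, made up most of the astrocyte sum. Counts of called genes are therefore given with and without control 1. The mitochondrial mRNA mt-Co1 was highest in lactic acid replicate 3 (99431 TPM) and 15% CO2 replicate 3 (78056 TPM), against 42799 to 67637 TPM in the others.

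The 10 genes together made up 8056 to 11339 TPM of a library. Control 1 was the lowest (8056 TPM) and controls 2 and 3 the highest (11339 and 11216 TPM). The sum was 10309, 11010 and 10407 TPM with 15% CO2, 10139, 10078 and 9404 TPM with lactic acid, and 10700, 10524 and 10339 TPM with low NaHCO3. Hsp90ab1 took 36.1 to 45.6% of the sum, Hspa8 18.2 to 22.9%, Hsp90aa1 14.5 to 18.8% and Hspd1 12.5 to 16.5%. Hspa4 and Cryab stood at 171 to 447 TPM, and Dnaja1, Hsph1 and Dnajb1 at 40.6 to 136 TPM. Hspb1 was at or near 0 in every library but control 1.

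**Figure D1:**
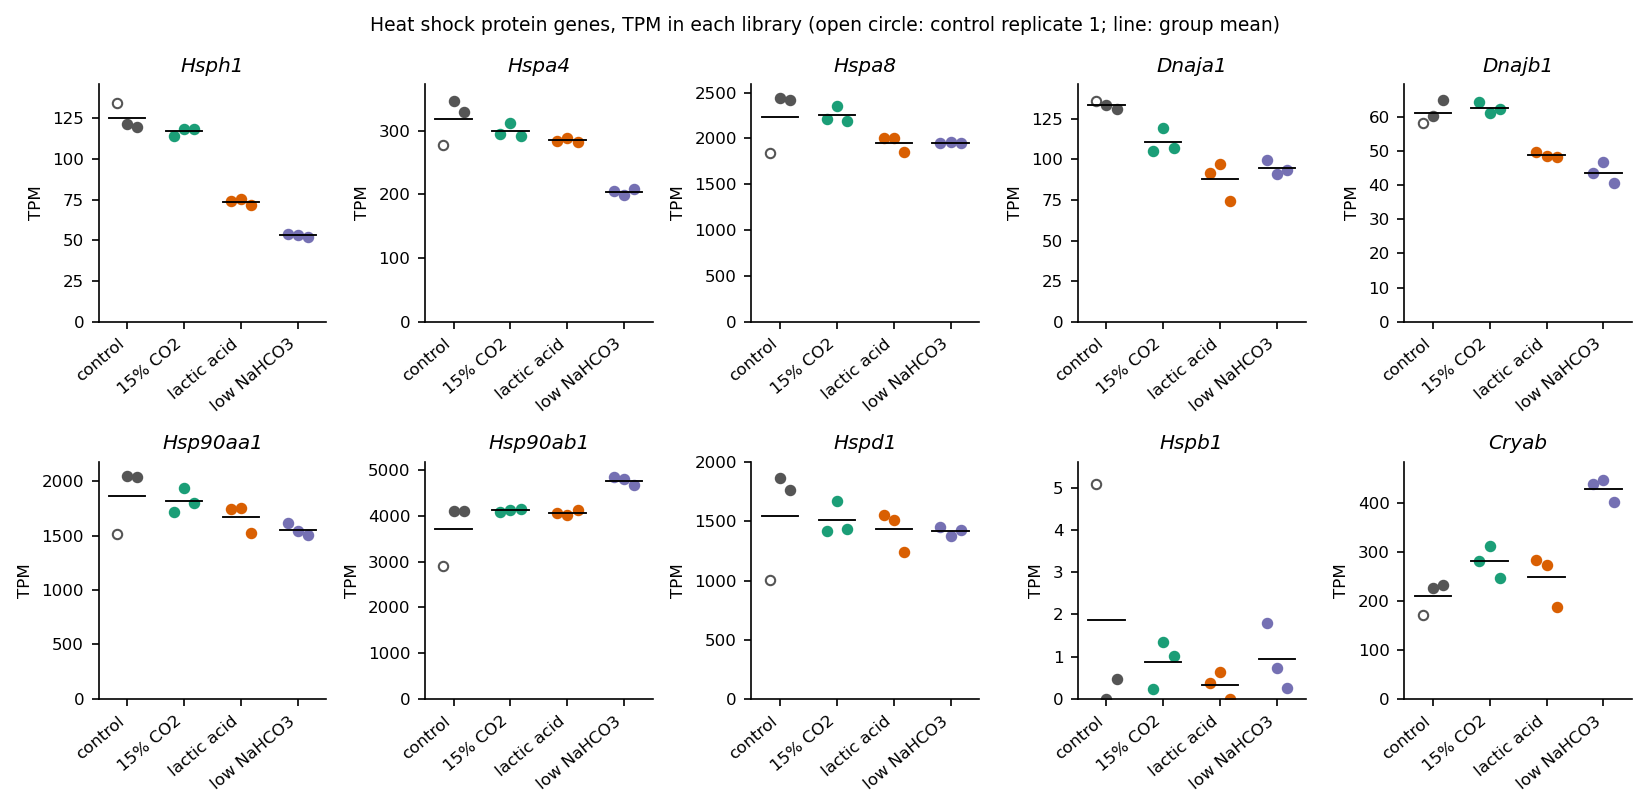
TPM of each of the 10 genes (vertical axis, from 0, a separate scale for each gene) in the 12 libraries, by group; points are libraries, the open circle is control replicate 1 and lines are group means. Hsph1 steps down from control and 15% CO2 to lactic acid to low NaHCO3, while Cryab is highest with low NaHCO3 and Hspb1 is near 0 in all libraries but control 1.

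Genes with at least 1 TPM in all 3 libraries of a group were tested, 11996 with all 12 libraries and 12023 without control 1. Of the 10 genes 9 passed this filter, and Hspb1 did not. A log2 change is the difference of group means of log2(TPM + 1), given with its SE, and an adjusted p is limma's, with Benjamini-Hochberg adjustment over all genes tested and a threshold of 0.05. Because the groups share the 3 control libraries, the comparisons with control are not independent of each other. With 15% CO2 every library lay above all 3 controls for 15.6% of the genes tested and below them for 6.52%. These shares were 15.3% and 13.7% with lactic acid, and 24.3% and 40.4% with low NaHCO3. Without control 1 they were 30.8% and 19.5%, 28.1% and 28.4%, and 30.8% and 51.3%, in the same order. In RNA from bulk cells, fewer cells of a type and less RNA per cell cannot be told apart.

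Hsph1 (ENSMUSG00000029657) encodes HSP105, an HSP110 protein that exchanges the nucleotide of HSP70 and takes part in dissolving protein aggregates. It fell with lactic acid and, further, with low NaHCO3. Its level was 135, 122 and 119 TPM in controls 1, 2 and 3, 114, 118 and 118 TPM with 15% CO2, 74.0, 75.6 and 72.0 TPM with lactic acid, and 53.9, 53.0 and 52.1 TPM with low NaHCO3. The 3 libraries of each group lay together, and the ranges of the 4 groups did not overlap, although 15% CO2 was just under control. Among all genes tested, 6.52% lay below all controls with 15% CO2, 13.7% with lactic acid and 40.4% with low NaHCO3. The log2 change was −0.75 ± 0.069 with lactic acid (adjusted p = 0.00174) and −1.22 ± 0.069 with low NaHCO3 (adjusted p = 4.63e-07). Without control 1 these were −0.70 ± 0.057 (adjusted p = 0.000191) and −1.17 ± 0.057 (adjusted p = 6.82e-08). With 15% CO2 the change of −0.10 ± 0.069 did not pass (adjusted p = 0.512, and 0.663 without control 1). Low NaHCO3 was also below lactic acid, since lactic acid minus low NaHCO3 was 0.47 ± 0.069 (adjusted p = 0.000254). Of the 4 levels in order, only the neighbours control and 15% CO2 were not separated by the test.

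Hspa4 (ENSMUSG00000020361), the other HSP110 gene of the set, fell with low NaHCO3. It stood at 278, 348 and 330.2 TPM in controls 1 to 3, 295, 313 and 292 TPM with 15% CO2, 284, 288 and 283 TPM with lactic acid, and 205, 199 and 208 TPM with low NaHCO3. Low NaHCO3 was below every other library, where 40.4% of all genes tested lay below all controls. Control 1 was below 15% CO2 and the lactic acid libraries. The log2 change with low NaHCO3 was −0.63 ± 0.089 (adjusted p = 0.000161), and −0.73 ± 0.063 without control 1 (adjusted p = 2.70e-06). Whether it fell with lactic acid depended on control 1: the change was −0.15 ± 0.089 (adjusted p = 0.315) with it and −0.25 ± 0.063 (adjusted p = 0.0230) without it. With 15% CO2 neither value passed (−0.08 and −0.18 without control 1, adjusted p = 0.106 in the latter).

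Hspa8 (ENSMUSG00000015656) encodes HSC70, the HSP70 present in unstressed cells, which also serves clathrin uncoating and chaperone-mediated autophagy. It was 1844, 2436 and 2424 TPM in controls 1 to 3, 2216, 2349 and 2189 TPM with 15% CO2, 2001, 2005 and 1854 TPM with lactic acid, and 1947, 1964 and 1947 TPM with low NaHCO3. Controls 2 and 3 were the highest of all libraries and control 1 the lowest. No treatment passed against all 3 controls: the log2 changes were 0.02 with 15% CO2 (adjusted p = 0.950), −0.18 with lactic acid (adjusted p = 0.432) and −0.18 with low NaHCO3 (adjusted p = 0.282). Without control 1, Hspa8 fell by 0.32 on the log2 scale with lactic acid (SE 0.093, adjusted p = 0.0407) and by the same amount with low NaHCO3 (adjusted p = 0.0113). Median-of-ratios scaling, which sets the typical gene equal between libraries, took the low NaHCO3 value without control 1 to −0.12 (adjusted p = 0.218), and with all 12 libraries to 0.02. Quantile normalization went the other way, where with all 12 libraries Hspa8 fell with lactic acid (−0.37, adjusted p = 0.0400) and low NaHCO3 (−0.67, adjusted p = 0.000101), and −0.64 with low NaHCO3 without control 1 (adjusted p = 2.48e-05).

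The HSP110 genes and HSC70 changed unequally. Hspa8 was 20.2 times the level of Hsph1 in controls 2 and 3 (13.7 in control 1), 19.2 ± 0.67 (SD, n = 3) with 15% CO2, 26.4 ± 0.65 with lactic acid and 36.9 ± 0.64 with low NaHCO3. The ratio of Hspa8 to Hspa4 was 6.62 to 7.34 in control, 7.50 to 7.52 with 15% CO2, 6.56 to 7.04 with lactic acid and 9.34 to 9.86 with low NaHCO3. Both ratios were highest in the low NaHCO3 libraries. Lactic acid was above control in the ratio to Hsph1 and overlapped it in the ratio to Hspa4, where 15% CO2 lay just above the controls. A ratio within a library does not depend on the scaling between libraries, and the pairs of genes for these ratios were chosen after values were known.

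The J proteins Dnaja1 (ENSMUSG00000028410) and Dnajb1 (ENSMUSG00000005483) belong to classes A and B and bring clients to HSP70. Dnajb1 is HSP40, a gene strongly induced by heat. Both fell with lactic acid and with low NaHCO3 when all 12 libraries were fitted, though for Dnajb1 the lactic acid call is at the threshold. Dnaja1 was 136, 134 and 131 TPM in control, 106, 119 and 107 TPM with 15% CO2, 91.9, 97.0 and 74.2 TPM with lactic acid, and 99.5, 91.2 and 93.5 TPM with low NaHCO3. The 3 controls, control 1 included, were the 3 highest libraries, and lactic acid replicate 3, the library with the most mt-Co1, was the lowest. The log2 change of Dnaja1 was −0.61 ± 0.10 with lactic acid (adjusted p = 0.0126) and −0.49 ± 0.10 with low NaHCO3 (adjusted p = 0.00177). Without control 1 it was −0.60 (adjusted p = 0.00522) and −0.48 (adjusted p = 0.00201). Lactic acid and low NaHCO3 were not separated (−0.12 ± 0.10, adjusted p = 0.348). With 15% CO2 all 3 libraries were below all 3 controls, as for 6.52% of all genes tested. The change of −0.27 ± 0.10 did not pass (adjusted p = 0.226, and 0.149 without control 1).

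Dnajb1 was 58.4, 60.3 and 65.1 TPM in control, 64.4, 61.1 and 62.5 TPM with 15% CO2, 49.8, 48.6 and 48.4 TPM with lactic acid, and 43.7, 46.7 and 40.6 TPM with low NaHCO3. Control and 15% CO2 overlapped, and the lactic acid and low NaHCO3 libraries lay below them, with low NaHCO3 the lowest. Among all genes tested, 13.7% lay below all controls with lactic acid and 40.4% with low NaHCO3. The change was −0.48 ± 0.076 with low NaHCO3 (adjusted p = 0.000348, and −0.51 with adjusted p = 9.34e-05 without control 1). With lactic acid it was −0.32 ± 0.076 (adjusted p = 0.0437), and −0.35 ± 0.072 without control 1 (adjusted p = 0.0105). Leaving out any 1 library other than control 1 or low NaHCO3 replicate 3 ended that call, with adjusted p from 0.0533 to 0.123, while the log2 change stayed between −0.33 and −0.27.

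HSP90 is made from a pair of genes, Hsp90aa1 (ENSMUSG00000021270), the form more responsive to stress, and Hsp90ab1 (ENSMUSG00000023944), the constitutive form. Hsp90aa1 was 1512, 2047 and 2039 TPM in controls 1 to 3, 1720.2, 1938 and 1803 TPM with 15% CO2, 1742, 1750.1 and 1519.9 TPM with lactic acid, and 1618, 1545 and 1502 TPM with low NaHCO3. Controls 2 and 3 were above every treated library, and control 1 was among the lowest. With all 12 libraries no change passed (−0.25 ± 0.15 with low NaHCO3, adjusted p = 0.162). Without control 1 it fell with low NaHCO3 (−0.39 ± 0.10, adjusted p = 0.00539) and not with lactic acid (−0.29 ± 0.10, adjusted p = 0.0692). Median-of-ratios scaling without control 1 took the low NaHCO3 value to −0.20 (adjusted p = 0.0572) and made the lactic acid value pass (−0.29, adjusted p = 0.0366). Under quantile normalization Hsp90aa1 fell with low NaHCO3 with all 12 libraries (−0.73, adjusted p = 5.59e-05) and without control 1 (−0.74, adjusted p = 1.44e-05), and with lactic acid without control 1 (−0.27, adjusted p = 0.0347).

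Hsp90ab1 was 2909.8, 4101 and 4112 TPM in controls 1 to 3, 4091, 4129 and 4149 TPM with 15% CO2, 4061, 4027 and 4120.0 TPM with lactic acid, and 4843, 4799 and 4669.7 TPM with low NaHCO3. Apart from control 1 the first 3 groups lay within a narrow band, and all low NaHCO3 libraries were above it. With low NaHCO3, 24.3% of all genes tested lay above all controls. The difference of low NaHCO3 from control was 0.38 ± 0.18 (adjusted p = 0.0850) and 0.22 ± 0.11 without control 1 (adjusted p = 0.104), so neither passed. It passed under median-of-ratios scaling (0.58, adjusted p = 0.0175, and 0.41, adjusted p = 0.00770, without control 1), while quantile normalization gave −0.13 (adjusted p = 0.283). Over all alternative fits it passed in 2 of 19 with control 1 and 3 of 9 without it, so the call depends on the settings. Hsp90ab1 is 1 of the 10 most abundant genes of the table.

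The ratio of Hsp90ab1 to Hsp90aa1 within a library set all groups of treated cells above control. It was 1.92, 2.003 and 2.016 in control, 2.38, 2.13 and 2.30 with 15% CO2, 2.33, 2.30 and 2.71 with lactic acid, and 2.99, 3.11 and 3.11 with low NaHCO3. Control 1 stood with the other controls here. Every treated library was above every control, and every low NaHCO3 library was above all others. With 3 libraries against 3 the smallest two-sided p of an exact permutation test is 0.1, so no p is given for these ratios.

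**Figure D2:**
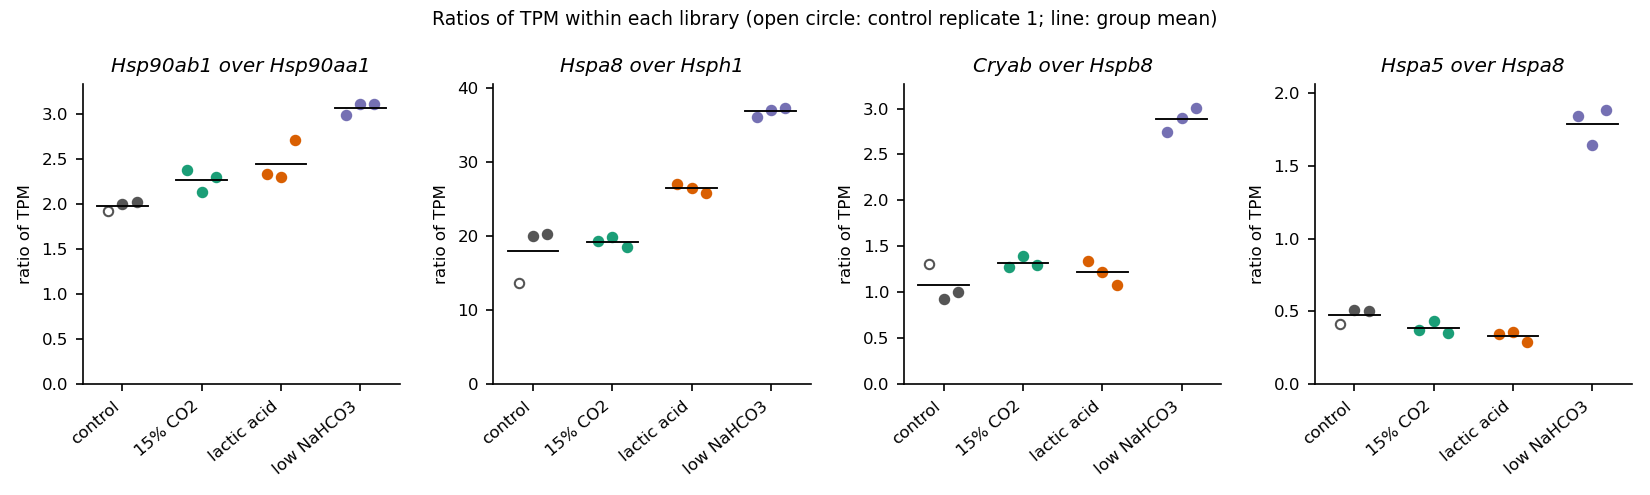
Ratios of TPM between pairs of genes within each library (vertical axes, from 0, no unit), by group; points are libraries, the open circle is control replicate 1 and lines are group means. The ratio of Hsp90ab1 to Hsp90aa1 is 1.92 to 2.016 in control and 2.99 to 3.11 with low NaHCO3, and that of Hspa8 to Hsph1 rises from 20.2 in controls 2 and 3 to a mean of 36.9.

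Hspd1 (ENSMUSG00000025980) was 1005, 1866 and 1762 TPM in controls 1 to 3, 1421, 1668 and 1437 TPM with 15% CO2, 1551, 1511 and 1245 TPM with lactic acid, and 1448, 1377 and 1425 TPM with low NaHCO3. Controls 2 and 3 were the highest and control 1 the lowest. With all 12 libraries the changes were −0.07 to 0.01, each with an SE of 0.21, and none passed. Without control 1, Hspd1 fell with low NaHCO3 (−0.36 ± 0.12, adjusted p = 0.0199), and under median-of-ratios scaling this was −0.16 (adjusted p = 0.160), while the lactic acid value then passed (−0.33, adjusted p = 0.0321). Under quantile normalization Hspd1 fell with low NaHCO3 with all 12 libraries (−0.44, adjusted p = 0.00378) and without control 1 (−0.57, adjusted p = 9.81e-06). Its partner Hspe1 fell there too without control 1 (−0.39 ± 0.14, adjusted p = 0.0314), a call lost under median-of-ratios scaling, and the ratio of Hspd1 to Hspe1 was 2.77 in control, 2.76 with 15% CO2, 2.93 with lactic acid and 2.86 with low NaHCO3.

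Cryab (ENSMUSG00000032060) encodes alpha B-crystallin, a small heat shock protein that binds intermediate filaments and is plentiful in lens, muscle and glia. At the main settings, with and without control 1, it was the 1 gene of the set that rose on the deposited scale. Its level was 171, 227 and 232 TPM in controls 1 to 3, 282, 313 and 247 TPM with 15% CO2, 284, 273 and 188 TPM with lactic acid, and 439.5, 447 and 401 TPM with low NaHCO3. The low NaHCO3 libraries were above all others, the 15% CO2 libraries were above the controls, and lactic acid overlapped the controls through its replicate 3. Of all genes tested, 15.6% lay above all controls with 15% CO2 and 24.3% with low NaHCO3. The log2 change with low NaHCO3 was 1.04 ± 0.17 (adjusted p = 0.000407), and 0.90 ± 0.16 without control 1 (adjusted p = 0.000445). It was 0.42 ± 0.17 with 15% CO2 (adjusted p = 0.261, and 0.28 with adjusted p = 0.277 without control 1) and 0.23 ± 0.17 with lactic acid (adjusted p = 0.412). Without control 1 and both libraries high in mt-Co1, lactic acid 3 and 15% CO2 3, these became 0.37 ± 0.071 (adjusted p = 0.00824) and 0.28 ± 0.071 (adjusted p = 0.0203), so the calls rest on which libraries are kept.

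Hspb1 (ENSMUSG00000004951), the small heat shock protein HSP25, was 5.09 TPM in control 1, listed at 0 in control 2 and 0.478 TPM in control 3. It was 0.238, 1.35 and 1.02 TPM with 15% CO2, 0.383, 0.623 and listed at 0 with lactic acid, and 1.80, 0.728 and 0.259 TPM with low NaHCO3. The groups overlapped and no group rose above the others. Cryab was therefore the small heat shock protein gene of the set with a level to compare, at 171 TPM or more in every library.

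Against control, 0 of the 9 tested genes passed with 15% CO2 under limma, where 1.34% of all genes tested passed upward and 0.0667% downward. At an unadjusted p under 0.05 there were 2 of the 9 and 1901 of all genes. Without control 1 the count was again 0, with 5.99% of all genes up and 1.63% down, and 3 of the 9 and 3147 of all genes at an unadjusted p under 0.05. On each of 2 other scales without control 1, 1 gene passed with 15% CO2. Under median-of-ratios scaling it was Dnaja1, downward (−0.29, adjusted p = 0.0463), beside 5.11% of all genes down and 6.18% up. Under quantile normalization it was Cryab, upward, beside 5.71% of all genes up and 3.72% down. With lactic acid 3 fell (Hsph1, Dnaja1 and Dnajb1) and none rose, against 1.68% of all genes down and 2.73% up. Without control 1, 5 fell, the added ones being Hspa8 and Hspa4, against 7.34% of all genes down and 9.31% up. In a fit of the lactic acid libraries and all 3 controls alone none passed, and 0% of all genes did. Adjusted p was then 0.174 for Hsph1 and 0.219 for Dnaja1. With low NaHCO3, 4 fell (Hsph1, Hspa4, Dnaja1 and Dnajb1) and Cryab rose, against 35.8% down and 20.5% up among all genes. Without control 1, 7 fell and Cryab rose, against 41.5% down and 23.1% up. On the deposited scale with all 12 libraries 4 of 9 thus fell beside 35.8% of all genes, while under quantile normalization 7 of 9 fell beside 17.6%, and without control 1 as well 7 of 9 beside 32.7%. Median-of-ratios scaling gave 4 of 9 beside 27.1%, and 4 of 9 beside 32.4% without control 1. With lactic acid the same scaling without control 1 gave 7 of 9 that fell, beside 10.9% of all genes.

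The median change of the 9 genes with low NaHCO3 was −0.25, beside −0.19 for all genes tested, and −0.39 beside −0.18 without control 1. Median-of-ratios scaling moved the median of all genes with low NaHCO3 to −0.01 and the upward share of all calls from 36.4% to 52.3%. Under it Hsph1 (−1.03), Hspa4 (−0.44), Dnaja1 (−0.30) and Dnajb1 (−0.28) still passed downward, and Cryab (1.24) and Hsp90ab1 upward. With lactic acid the median of the 9 was −0.15 beside −0.03 for all genes, and −0.32 beside −0.0018 without control 1. With 15% CO2 it was 0.01 beside 0.01, and −0.11 beside 0.03 without control 1.

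**Figure D3:**
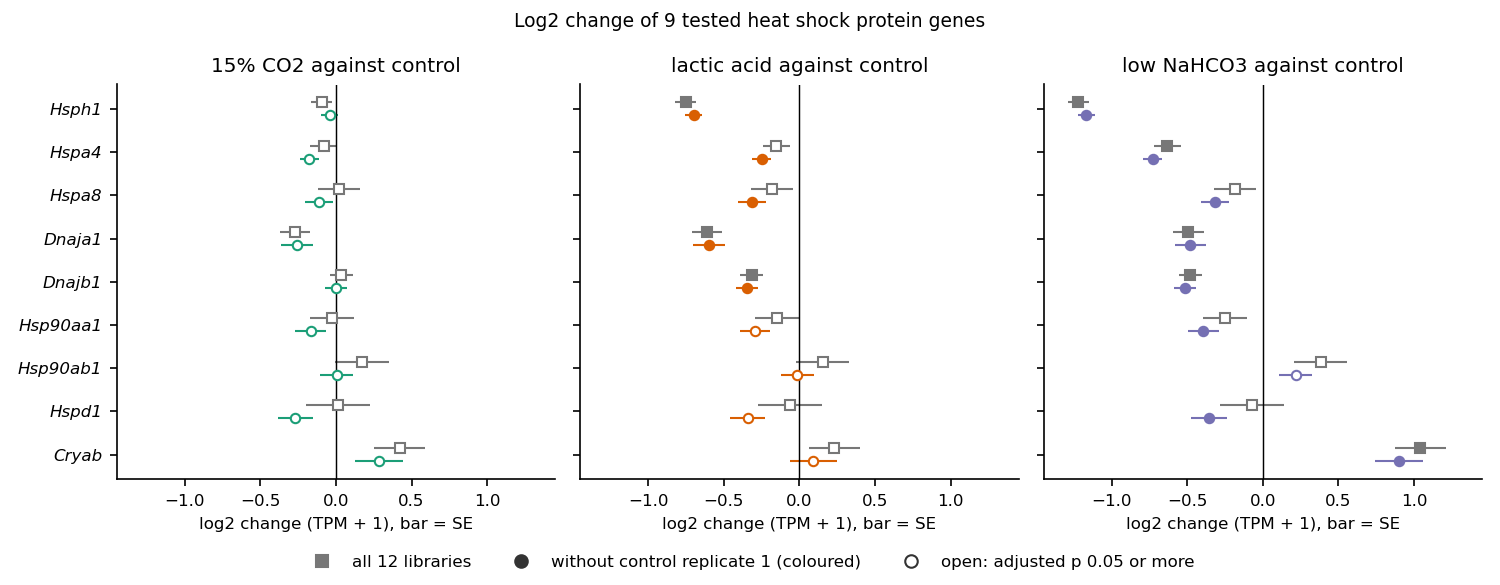
Log2 change of TPM + 1 against control (horizontal axis, bars are SE) of the 9 tested genes in the 3 treatments; squares use all 12 libraries, circles leave out control replicate 1, and filled points have an adjusted p under 0.05. Hsph1 is at −0.75 with lactic acid and −1.22 with low NaHCO3, Cryab at 1.04 with low NaHCO3, and no point is filled with 15% CO2.

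The treatments were also set against each other, which uses no control level. Hsph1 was higher with 15% CO2 than with lactic acid (0.66 ± 0.069, adjusted p = 0.00311). It was the 1 gene of the 9 to pass, where 0.275% of all genes passed upward and 0.0584% downward. In the fit without control 1, whose spread is smaller, Dnajb1 passed too (0.35 ± 0.065, adjusted p = 0.0144), against 3.09% of all genes up and 1.71% down. Between 15% CO2 and low NaHCO3, Hsph1 (1.13 ± 0.069), Hspa4 (0.55 ± 0.089) and Dnajb1 (0.51 ± 0.076) were higher with 15% CO2 and Cryab lower (−0.62 ± 0.17), against 34.6% up and 18.1% down among all genes. The fit without control 1 added Hspa8 (0.20) and Hsp90aa1 (0.23), with 45.8% up and 24.2% down. Dnaja1, at an adjusted p of 0.0856 with all 12 libraries, passed in this comparison when lactic acid replicate 3 was left out (adjusted p = 0.0257). Median-of-ratios scaling took the upward share of all calls here from 65.6% to 45.3%.

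Between lactic acid and low NaHCO3, Hsph1 (0.47 ± 0.069) and Hspa4 (0.48 ± 0.089) were higher with lactic acid and Cryab lower (−0.81 ± 0.17), where 31.7% of all genes passed upward and 18.3% downward. Without control 1 Dnajb1 passed as well (0.16 ± 0.065, adjusted p = 0.0425), with 43.3% up and 24.8% down. Scaling moved the upward share of all calls from 63.3% to 44.9%. Over all 4 groups limma's F test passed for 5 of the 9 genes (Hsph1, Hspa4, Dnaja1, Dnajb1 and Cryab), against 55.2% of all genes. Without control 1 it passed for 7, with Hspa8 and Hsp90aa1, against 75.4% of all genes. Both shares of the set are close to those of all genes.

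Other chaperone genes were followed in 11 lists of 74 genes, arranged by role. With all 12 libraries on the deposited scale none of them passed with 15% CO2, and with lactic acid only Hspb7 and Dnajc3 did, so the counts below are mostly those of low NaHCO3. Of the 3 tested genes on heat shock factors, Hsf1, Hsf2 and Hsbp1, none passed against control in any treatment with all 12 libraries on the deposited scale, and without control 1 Hsf2 fell with low NaHCO3 (−0.25 ± 0.092, adjusted p = 0.0344), a call lost under median-of-ratios scaling. That scaling called Hsf1 upward with low NaHCO3 with all 12 libraries (0.31, adjusted p = 0.0325) and Hsbp1 upward without control 1 (0.34, adjusted p = 0.000595). Hsf1 was 23.5 TPM in control 1 and 27.6 to 34.4 TPM elsewhere. Among the 3 inducible HSP70 genes Hspa1b fell with low NaHCO3, from 13.6 and 15.5 TPM in controls 2 and 3 to 6.02 ± 0.58 TPM (SD, n = 3). Its log2 change was −0.95 ± 0.17 (adjusted p = 0.000719), and −1.15 without control 1, and under quantile normalization of all 12 libraries it did not pass. Without control 1 it also fell with lactic acid (−0.70, adjusted p = 0.00396) and with 15% CO2 (−0.46, adjusted p = 0.0358). Hspa1a, at 0.75 to 2.34 TPM, had a change of the opposite sign with low NaHCO3: it did not pass with all 12 libraries (0.37, adjusted p = 0.173) and rose without control 1 (0.53 ± 0.20, adjusted p = 0.0380). Under quantile normalization of all 12 libraries Hspa1a (1.08, adjusted p = 0.00823) and Hspa1l (1.01, adjusted p = 0.0390) rose with low NaHCO3. Since 66.3% of the 50-base stretches of Hspa1a also occur in transcripts of other genes, chiefly Hspa1b, the division between them is uncertain.

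The counts of the next lists stand beside those of all genes. With low NaHCO3, 20.5% of all genes rose and 35.8% fell, and without control 1, 23.1% rose and 41.5% fell. Of 6 other HSP70 genes, Hspa14 rose with low NaHCO3 (1.13 ± 0.16, adjusted p = 0.000181). Hspa12b fell (−1.52 ± 0.22, from 4.59 to 0.98 TPM), as did Hspa13 (−0.37 ± 0.12, not called under median-of-ratios scaling of all 12 libraries). Without control 1, 2 rose, with Hspa4l (0.20), and 3 fell, with Hspa12a (−0.40), and Hspa2 rose with lactic acid (0.43 ± 0.098, adjusted p = 0.0157). Of 9 further J proteins, Dnajb6 (0.75 ± 0.096) and Dnajb4 (0.55 ± 0.095) rose with low NaHCO3, where Dnaja1 and Dnajb1 fell, while Dnajb5 and Dnajc7 fell, the latter not under median-of-ratios scaling. Dnajb5 was 81.7 TPM in control 1 and 14.5 and 14.8 TPM in controls 2 and 3, so its change of −1.44 ± 0.49 became −0.64 ± 0.10 without control 1. Without that library 3 J proteins rose, with Dnajb2 (0.59), and 3 fell, with Dnajc2 (−0.24). Of 6 nucleotide exchange genes, Bag2 (−1.19 ± 0.13, adjusted p = 3.13e-05), Hspbp1 (−0.79 ± 0.24) and Bag5 (−0.54 ± 0.12) fell with low NaHCO3 and Bag1 rose (0.31 ± 0.11, adjusted p = 0.0340). Among those named, only Bag5 still passed under quantile normalization of all 12 libraries. Hspbp1 also did not pass without control 1 under median-of-ratios scaling or quantile normalization. Without control 1 Bag1 did not pass (0.21, adjusted p = 0.0720), Bag4 rose, and Bag3, a partner of HSP70 and Hspb8 in autophagy, fell (−0.67 ± 0.13). Stub1, the ubiquitin ligase CHIP, was the 1 of 3 HSP70 cofactors to fall with low NaHCO3 (−0.49 ± 0.14, adjusted p = 0.0129). It did not pass when all 12 libraries were rescaled by median-of-ratios, and passed when control 1 was left out as well. Without control 1 on the deposited scale Stub1 fell in every treatment, with 15% CO2 (−0.38 ± 0.091, adjusted p = 0.0304), lactic acid (−0.39 ± 0.091, adjusted p = 0.0170) and low NaHCO3 (−0.67 ± 0.091, adjusted p = 6.65e-05), and Stip1 fell with low NaHCO3 (−0.38 ± 0.13). Stub1 was 43.8 TPM in control 1, and 64.2 and 65.2 TPM in controls 2 and 3.

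HSP90 cochaperones, the longest of these lists, held the most calls. With low NaHCO3, 7 of 12 fell and 1, Ppid, rose, where 35.8% of all genes fell. Without control 1, 5 fell and 2 rose, where 41.5% of all genes fell and 23.1% rose. The share of the list that fell was then close to that of all genes. Median-of-ratios scaling of all 12 libraries left 3 that fell (Fkbp4, Chordc1 and Ahsa2) and 3 that rose (Ppid, Cdc37 and Tsc1). Under that scaling 27.1% of all genes fell and 29.7% rose. Fkbp4, the immunophilin FKBP52, fell most, from 291 and 283 TPM in controls 2 and 3 (216 in control 1) to 128 ± 3.13 TPM (SD, n = 3). Its change was −1.02 ± 0.14 (adjusted p = 0.000112), and −1.16 without control 1. Chordc1 (−0.65 ± 0.14) and Ahsa2 (−0.55 ± 0.088), an activator of the HSP90 ATPase, fell as well. None of the 12 passed with lactic acid or 15% CO2 on the deposited scale, with or without control 1, while under median-of-ratios scaling without control 1 Ahsa1 and Fkbp4 fell with lactic acid.

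Among 5 tested small heat shock protein genes other than the members, Hspb7, best known from heart and muscle, rose with lactic acid (1.51 ± 0.21, adjusted p = 0.00844) and low NaHCO3 (0.98 ± 0.21, adjusted p = 0.00242). It was 9.47, 17.4 and 17.0 TPM in controls 1 to 3, 25.5, 25.2 and 29.4 TPM with 15% CO2, 40.4, 41.3 and 44.3 TPM with lactic acid, and 29.9, 35.6 and 22.7 TPM with low NaHCO3. All treated libraries were above all controls, and the change with 15% CO2 passed without control 1 (0.60 ± 0.15, adjusted p = 0.0337). By treatment, 15.6% (15% CO2), 15.3% (lactic acid) and 24.3% (low NaHCO3) of all genes tested lay above all controls. Upward calls were 2.73% of all genes with lactic acid, 20.5% with low NaHCO3, and 5.99% with 15% CO2 without control 1. Hspb8 did not follow Cryab: without control 1 it fell with low NaHCO3 (−0.67 ± 0.12, adjusted p = 0.000440). The ratio of Cryab to Hspb8 was 1.31 in control 1, a mean of 0.964 in controls 2 and 3, 1.32 ± 0.068 (SD, n = 3) with 15% CO2, 1.21 ± 0.13 with lactic acid and 2.88 ± 0.13 with low NaHCO3. Control 1 thus overlapped 15% CO2 and lactic acid, and low NaHCO3 alone stood above all controls.

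The chaperonin, mitochondrial and ER lists are given next, with counts in each direction. Of 8 subunits of the cytosolic chaperonin CCT, Cct4 rose with low NaHCO3 (0.87 ± 0.22) and no other passed with all 12 libraries. Of all genes, 20.5% rose and 35.8% fell there. Under median-of-ratios scaling 4 rose (Cct2, Cct4, Cct5 and Cct7), where 29.7% of all genes rose. Without control 1 Cct3 fell with low NaHCO3 (−0.36) and with lactic acid (−0.50 ± 0.14, adjusted p = 0.0391). Of 9 mitochondrial chaperone and protease genes, Grpel1 rose (0.63 ± 0.15) and Clpp fell (−0.49 ± 0.11) with low NaHCO3, and without control 1 Grpel2 (−0.26) and Hspe1 fell as well. Of 8 ER chaperone genes, 4 rose with low NaHCO3 (Hspa5, Hyou1, Hsp90b1 and Dnajc3) and none fell, where 20.5% of all genes rose. This count was 5 under median-of-ratios scaling (29.7% of all genes) and 3 under quantile normalization (24.5%). Without control 1, 5 rose, with Dnajb9 (0.49 ± 0.14), and Pdia4 fell (−0.21 ± 0.066, adjusted p = 0.0141), where 23.1% of all genes rose and 41.5% fell. Hspa5, the ER HSP70 known as BiP, rose from 1235 and 1223 TPM in controls 2 and 3 (764 in control 1) to 3494 ± 235 TPM (SD, n = 3), a change of 1.73 ± 0.20 (adjusted p = 3.80e-05). With lactic acid Dnajc3 fell (−0.47 ± 0.092, adjusted p = 0.0209), and without control 1, 6 of the 8 ER genes fell, beside 7.34% of all genes, Hspa5 among them (−0.94 ± 0.14, adjusted p = 0.00263). The ratio of Hspa5 to Hspa8 was 0.414 in control 1, a mean of 0.506 in controls 2 and 3, 0.385 ± 0.040 with 15% CO2, 0.329 ± 0.033 with lactic acid and 1.79 ± 0.13 with low NaHCO3. BiP exceeded HSC70 in TPM in the low NaHCO3 libraries and in no other.

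**Figure D4:**
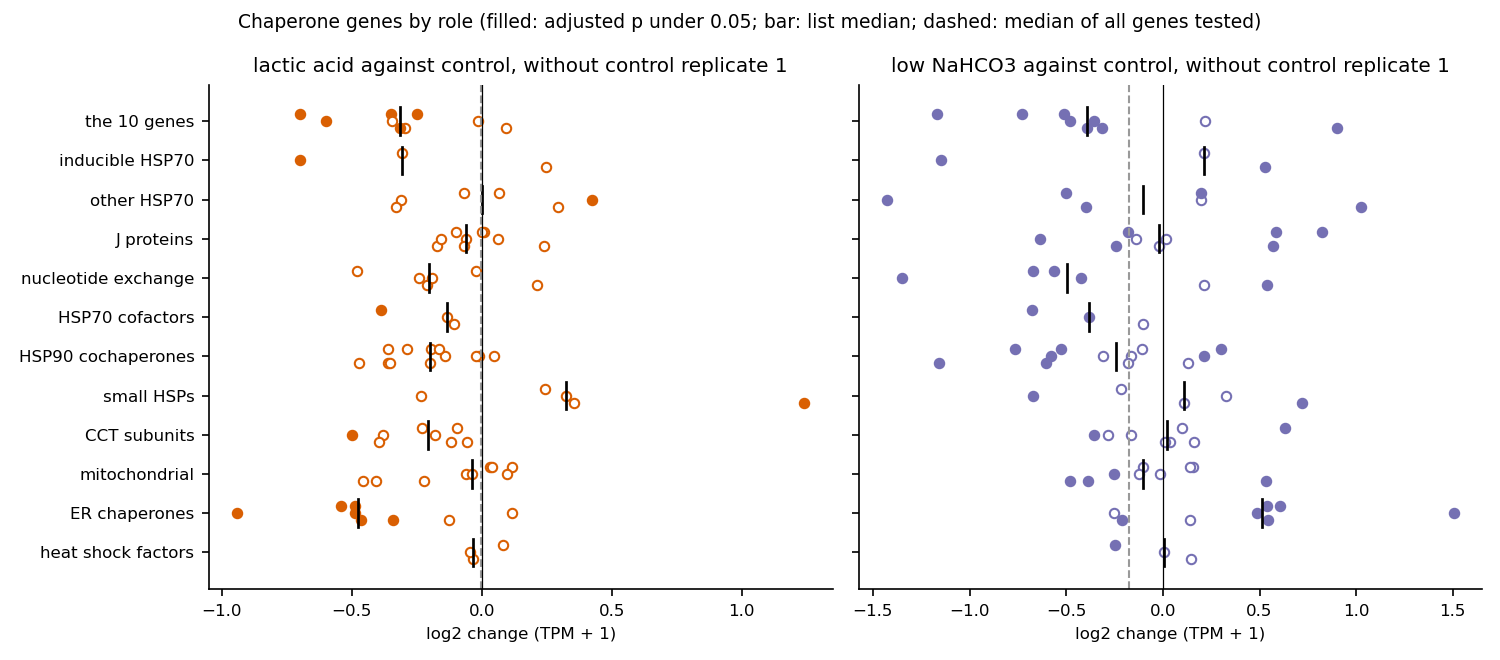
Log2 change of TPM + 1 (horizontal axis) with lactic acid and with low NaHCO3 against controls 2 and 3, for the 10 genes and the 11 chaperone lists; each point is 1 tested gene, filled where the adjusted p is under 0.05, short bars are list medians and the dashed line is the median of all genes tested. ER chaperone genes lie to the left with lactic acid (6 of 8 fell, beside 7.34% of all genes) and mostly to the right with low NaHCO3 (5 of 8 rose and 1 fell, beside 23.1% and 41.5% of all genes), while Hsph1 and Bag2 lie far to the left with low NaHCO3.

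Across the 11 libraries other than control 1 the levels of the members were compared on the log2 scale, as a description of libraries that share their groups. Hsph1 followed Dnajb1 (Pearson r = 0.97) and Hspa8 followed Dnaja1 (r = 0.95), whereas Hspa4 and Hsp90ab1 ran opposite (r = −0.93) and Cryab ran with Hsp90ab1 (r = 0.86). The members with the widest span of group means were Hsph1 (1.17 on the log2 scale), Cryab (0.90) and Hspa4 (0.73). Among 9984 genes with a mean of at least 5 TPM, those most like Hsph1 were Gamt (r = 0.990), Chrnb1 (0.985) and Col3a1 (0.983). Those most like Cryab were Plod3 (0.986), H2-T22 (0.986) and Rbfox2 (0.985), and those most like Hspa4 were Shroom2 (0.997), Ipo9 (0.995) and Cyb5b (0.994). These values rest mostly on the differences between 4 group means.

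Several of the genes share sequence with other genes, so their TPM may depend on how reads were divided, which is not given in the sources used here. Of the 50-base stretches of the longest coding transcript in GENCODE M21, 74.8% of Hspa8, 58.5% of Hsp90aa1, 51.6% of Hspb1, 44.8% of Hspd1 and 28.8% of Dnaja1 also occur in transcripts of other genes. Pseudogenes were 12 of these 13 other genes for Hspa8, 4 of 4 for Hsp90aa1 and 9 of 9 for Hspd1. They were 3 of 6 for Dnaja1 and 1 of 2 for Hspb1. The share was 19.0% for Cryab (its neighbour Hspb2), 4.49% for Hsp90ab1, 0.441% for Dnajb1 and 0 for Hsph1 and Hspa4. Both HSP110 genes, which fell with low NaHCO3, had no shared stretch.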

How the data were processed

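RNA of 12 libraries was deposited by the authors as TPM in 1 table, and each column sums to 1000000. The submitters' processing notes name fastp 0.22.0, HISAT2 2.1.0 and the build GRCm39. Which counter and annotation gave the TPM, and whether strand was used, is not given in the sources used here. Depth is therefore unknown, and antisense or overlapping genes cannot be told apart. Ensembl IDs were given symbols from GENCODE M21 (21851 matched, 108 did not, 26 repeated a symbol).

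Values were taken as log2(TPM + 1); this pseudocount of 1 understates changes of low genes. Genes with at least 1 TPM in all 3 libraries of a group were fitted with limma 3.58.1 in R 4.3.3 (group means, all 12 libraries, trended eBayes), two-sided, with Benjamini-Hochberg adjustment at 0.05 within each of 6 contrasts. The fitting script was tested on simulated data. Every fit was repeated without control replicate 1.

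The members and the 11 lists were chosen with earlier results of these data known. All members were named. From each list and treatment the text drew on up to 3 genes with the largest change past the threshold, or else the most abundant. Hsf1, Hsf2, Bag1, Bag3, Bag4, Hspa1a, Hspa1l, Hsbp1, Hspe1, the genes called only without control 1, Ppid, Dnajc7, Ahsa1, Cdc37, Tsc1, Cct2, Cct5, Cct7, Hspb8 in low NaHCO3, all ratios and the list counts on other scales were chosen after their values were seen. Same-numbered replicates were checked for shared deviations: 3 of 18 correlations were above 0.1 (range −0.15 to 0.49), and 4 of 15 without control 1. The highest were between 15% CO2 and lactic acid, for replicates 2 (0.35) and 3 (0.49). As most were not above 0.1, the numbers were not treated as pairs. Alternatives were another pseudocount, 2 other filters, scaling and quantile normalization, removal of mitochondrial and the 10 most abundant genes, robust eBayes, a fit of the groups compared only, a block by replicate number, and omission of each library in turn.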

Additional observations from a re-analysis of the deposited data

How the results depend on the processing

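The fall of Hsph1, Hspa4, Dnaja1 and Dnajb1 and the rise of Cryab with low NaHCO3 passed in 20 of 20 alternative fits with control 1 and 9 of 9 without it. With lactic acid Hsph1 passed in 19 of 20 and 9 of 9, Dnaja1 in 19 of 20 and 8 of 9, and Dnajb1 in 6 of 20 and 7 of 9. The fit of only the groups compared called 0 members with lactic acid, and 0 of all genes. Quantile normalization called 8 members with low NaHCO3 (7 down and 1 up, beside 17.6% and 24.5% of all genes), 8 between 15% CO2 and low NaHCO3 (35.4% of all genes), 6 between lactic acid and low NaHCO3 (33.5%) and 8 by the F test (38.7%), and leaving out mitochondrial and the 10 most abundant genes called 7 between 15% CO2 and low NaHCO3 (57.0%). With the replicate number as a block the counts were 0 with 15% CO2, 2 with lactic acid and 5 with low NaHCO3, 1, 4 and 3 between treatments, and 5 by the F test, beside 0.767, 3.11, 56.3, 0.108, 52.4, 49.7 and 54.2% of all genes; the block ended only the lactic acid call of Dnajb1 (adjusted p = 0.0694) among the members.

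Leaving out 1 library at a time, control 1 included, gave 0 members with 15% CO2, 2 to 5 with lactic acid, 5 to 8 with low NaHCO3, 1 to 2 between 15% CO2 and lactic acid, 4 to 6 between 15% CO2 and low NaHCO3, 3 to 4 between lactic acid and low NaHCO3, and 5 to 7 by the F test. The high ends are those without control 1. The shares of all genes called in these fits, in the same order, were 0.249 to 7.62%, 0.89 to 16.6%, 46.3 to 64.6%, 0.0499 to 4.80%, 43.3 to 69.9%, 39.8 to 68.1% and 42.1 to 75.4%. Together with a further change of setting, the fits without control 1 gave 0 to 1, 1 to 7, 6 to 9, 1 to 3, 4 to 8, 3 to 6 and 5 to 9 in the same order, with 0.495 to 13.6%, 1.91 to 22.6%, 51.9 to 71.6%, 0.981 to 7.53%, 66.5 to 73.1%, 64.8 to 70.6% and 67.8 to 80.9% of all genes. Chosen after seeing the data were the joint omissions of control 1 with control 2, with control 3 or with lactic acid 3 and 15% CO2 3, and, without control 1, the block and quantile normalization.

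These values reversed. Hspa8 was higher with lactic acid than with low NaHCO3 under quantile normalization (0.30, and 0.30 without control 1). The others were fits without control 1 against control: Hsbp1 with low NaHCO3 (0.34 under median-of-ratios scaling, 0.15 in the 2-group fit and in the omission with lactic acid 3 and 15% CO2 3), Ptges3 (−0.18 in the same fits, −0.31 under quantile normalization), Hspa9 (−0.10 in the 2-group fit and −0.35 under quantile normalization) and, with lactic acid and the block, Hspb8 (−0.27). Over the fits that leave out libraries, Hsbp1 with low NaHCO3 ran from −0.19 to 0.19 and Ptges3 from −0.21 to 0.13. The cause was not tested. Unknown depth limits every low value, Hspb1 above all.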
